A study of Homo sapiens with 6 samples.

Results

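Broad domains of H3K27Ac, the acetylation of lysine 27 of histone H3, were examined in control cells of a human acute myeloid leukemia (AML) line. A domain was a peak of at least 10000 bp in the sgNeg H3K27Ac list on chromosomes 1 to 22 and X, so that the members were chosen by their measured width in control cells. This rule gave 814 domains of 327666 sgNeg peaks, or 0.248%. The labels name OCI-AML3 for every sample, an established line which, per the study, has a heterozygous NPM1 mutation (mtNPM1), a heterozygous DNMT3A mutation and a homozygous NRAS mutation. By transfection, cells got either the control guide sgNeg or the guide sgNpm1A, which targets mtNPM1. The labels give 3 days of culture, and the text of the study gives longer. ChIP-seq of H3K27Ac and of H3K4me3, the trimethylation of lysine 4 of histone H3, was made in 1 library per guide RNA, and 2 input libraries were not analysed here. With 1 library per group there was no replicate and no test between guide RNAs. Each comparison describes a pair of libraries, and the 95% intervals given cover counting error only. Read totals were not part of the peak lists, and depth is unknown here.

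The names of the lists hold one tag for H3K27Ac and another for H3K4me3, and no source used here explains them. Should the H3K27Ac tag stand for another AML line, no value below on H3K27Ac would describe OCI-AML3, and setting the marks side by side would compare lines. The H3K27Ac lists are on GRCh37 (hg19) and the H3K4me3 lists on GRCh38 (hg38), so that the marks were joined by gene and not by position. Of 12 myeloid marker genes, 12 had a sgNeg H3K27Ac peak over a transcript start and 4 (MPO, ELANE, PRTN3 and CEBPA) had a start in a domain. None of the markers of B lymphoid (7 genes), T lymphoid (7), erythroid and megakaryocytic (7), epithelial (6), fibroblast (5), neural (5) or liver cells (4) had a start in a domain. Peaks of any width lay over a start of 5, 2, 3, 3, 4, 2 and 3 of these genes in the same order. Only 2.89% of all coding genes had a start in a domain, so that none in lists this short says little. The markers cannot tell OCI-AML3 from another AML line.

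H3K27Ac marks active promoters and enhancers. Most sites of the mark are narrow, but at genes that define a cell type it can extend over long stretches, where dense enhancers bind the master transcription factors of that cell (super-enhancers). In AML with mtNPM1, the HOXA and HOXB genes and MEIS1 are expressed as in early blood progenitors, and MYB, IRF8 and CEBPA are among the factors that set the myeloid program.

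Several of the domains contain microRNA (miRNA) genes with known roles in blood cells. Of 54 miRNA genes in 45 domains, given without the share of all miRNA genes, 43 matched a mature sequence of the RefSeq table (GRCh37 positions from GENCODE). Mature sequences of 12 are shown, chosen for their known roles and after their values were seen, from domains with low and with high coverage by sgNpm1A peaks, with the seed (bases 2 to 8) in capitals.
miR-223-3p: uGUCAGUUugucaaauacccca
miR-128-3p: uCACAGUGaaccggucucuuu
miR-196b-5p: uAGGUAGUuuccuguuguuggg
miR-27a-3p: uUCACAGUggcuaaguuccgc
miR-23a-3p: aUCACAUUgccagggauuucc
let-7a-5p: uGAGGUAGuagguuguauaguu
let-7b-5p: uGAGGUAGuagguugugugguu
miR-93-5p: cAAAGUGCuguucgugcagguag
miR-106b-5p: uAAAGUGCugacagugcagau
miR-25-3p: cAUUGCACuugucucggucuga
miR-182-5p: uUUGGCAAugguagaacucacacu
miR-183-5p: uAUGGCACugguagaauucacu
The let-7a and let-7b arms share the seed GAGGUAG, and those of miR-93 and miR-106b share AAAGUGC.

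The gene of miR-223, a miRNA of myeloid cells that restrains neutrophil function, lay in a domain of 13179 bp on chromosome X (chrX:65229315-65242493), of which 0% was under sgNpm1A peaks. The domain with miR-128-2 (chr3:35784442-35795083) was also covered over 0%. The domain with miR-196b, encoded between HOXA9 and HOXA10, was covered over 2.06%, and that of miR-23a and miR-27a (chr19:13944049-13960367, 16319 bp) over 15.5%. In contrast, the domain of let-7a-3 and let-7b (chr22:46497377-46516529) was covered over 48.5%, that of miR-25, miR-93 and miR-106b (chr7:99688059-99701411) over 60.1%, and that of miR-96, miR-182 and miR-183 (chr7:129405353-129416274) over 89.6%. This last domain had a low sgNeg fold enrichment of 3.14, whereas that of miR-23a and miR-27a had 8.10.

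The 250 bases before the transcript start are shown for 2 transcription factor genes, whose starts lie in an uncovered and in a mostly covered domain. CG dinucleotides are in capitals (starts from GENCODE, sequence of GRCh37).
MYB (chr6:135502196-135502445, plus strand): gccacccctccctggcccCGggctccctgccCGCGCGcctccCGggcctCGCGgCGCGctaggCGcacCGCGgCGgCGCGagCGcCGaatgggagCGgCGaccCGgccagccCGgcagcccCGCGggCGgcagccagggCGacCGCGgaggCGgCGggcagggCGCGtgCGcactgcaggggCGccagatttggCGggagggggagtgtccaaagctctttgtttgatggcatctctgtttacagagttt
MEF2D (chr1:156470568-156470817, minus strand): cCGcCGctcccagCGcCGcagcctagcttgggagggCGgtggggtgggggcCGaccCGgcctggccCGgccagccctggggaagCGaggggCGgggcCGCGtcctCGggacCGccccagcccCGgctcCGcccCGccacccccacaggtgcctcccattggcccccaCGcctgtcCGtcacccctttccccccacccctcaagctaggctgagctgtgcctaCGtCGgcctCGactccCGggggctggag
They hold 34 and 23 CG dinucleotides, and their GC content is 75.6% and 77.6%. The domains around them were covered by sgNpm1A peaks over 0% and 61.6%, respectively.

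The domains together spanned 12234174 bp, or 5.56% of the length under sgNeg H3K27Ac peaks and 0.403% of the chromosomes. Their widths ran from 10000 to 60166 bp with a median of 13137 bp, and 10% of them exceeded 21746 bp. The median width of all sgNeg peaks was 358 bp. Fold enrichment, the pileup over the expected pileup averaged over the peak, had a median of 4.89 in the domains, from 3.09 to 14.3. The q-value was under 1e-05 in 565 domains (69.4%) and in 2.87% of all sgNeg peaks. These values come from the list that chose the domains and are a description only. The sgNpm1A list held 83 peaks of this width among 317029, and 30 of these overlapped a domain.

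The genes of the domains were asked for next. A transcript start of a protein-coding gene lay inside 417 of the 814 domains (51.2%, 47.8 to 54.6%), against 5.41% of all sgNeg peaks, which are far narrower. In all, 581 of 20098 protein-coding genes (2.89%) had a start in a domain. One such gene was present in 295 domains, 2 genes in 75 domains, and 3 or more in 47. A further 166 domains lay inside or across a coding gene without a start, 139 overlapped another annotated gene alone, and 92 overlapped no annotated gene. Of the 397 domains without a coding start, 80 lay within 10 kb of one and 165 lay more than 50 kb from one. A start of a long noncoding RNA lay in 239 domains (29.4%). The share of all sgNeg peaks with such a start was not counted. Wide regions hold more starts by their length, so that the 29.4% is a description only. Exons of coding genes made up 11.4% of domain length, against 3.57% of the chromosomes, and coding gene bodies 60.2%, against 42.9%.

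To determine how much of the domains was still marked with sgNpm1A, the share of each domain under sgNpm1A H3K27Ac peaks was measured. The median domain was covered over 24.96% (22.3 to 27.6%), and summed over all domains the share was 30.8%, whereas sgNpm1A peaks covered 6.41% of the chromosomes. The flanks, windows of the domain's own width on either side, were covered over a median of 18.4%. A median of 4 separate sgNpm1A peaks lay in a domain, and the longest unbroken stretch had a median of 1458 bp, so that the domains were broken into short pieces in the sgNpm1A list. The domains were chosen as unbroken sgNeg peaks, so that shorter pieces in another list follow in part from the choice. There was no sgNpm1A peak in 64 domains (7.86%, 6.21 to 9.92%), against 49.3% of all sgNeg peaks. At least 50% of the length was covered in 178 domains (21.9%, 19.2 to 24.8%), against 35.5% of all sgNeg peaks. All sgNeg peaks had a median width of 358 bp, and a narrow region has less room for a peak, so that neither share is a like measure for domains. Coverage exceeded that of the flanks in 504 domains (61.9%, 58.5 to 65.2%), against 40.9% of all sgNeg peaks. A region without a sgNpm1A peak cannot exceed its flanks, so that this share of all sgNeg peaks is no like measure either.

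sgNeg peaks of 5 to under 10 kb served as the class nearest in width. The 3032 peaks of this class had a median coverage of 21.7% (20.4 to 22.9%) and flanks with a median of 15.3%. Coverage exceeded the flanks in 60.2% of them (58.4 to 61.9%), and 21.7% were covered over at least 50%. These shares lay within the intervals of the domains, and the median was just below theirs. A share of 16.5% (15.2 to 17.9%) held no sgNpm1A peak, above the 7.86% of domains, and a shorter region has less room for a peak. Among the domains, width and coverage were hardly related (Spearman's rho 0.0525 over 814 domains, which share both libraries). The 50 domains of 25000 bp and over had a median coverage of 27.9% (19.6 to 40.9%), and the 543 under 15000 bp had 24.1% (21.1 to 27.5%).

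By the deposited values, a sgNpm1A peak with a fold enrichment of at least 4 lay in 85 domains (10.4%) and one of at least 6 in 10 (1.23%), whereas 203 domains (24.9%) had an average of at least 6 in sgNeg. Over the whole lists, 0.83% of sgNeg peaks and 0.19% of sgNpm1A peaks reached 6. The highest sgNpm1A peak of a domain was at or above the sgNeg average of that domain in 89 domains. Among domains with a sgNpm1A peak, the highest one stood at a median percentile of 86.6 in the sgNpm1A list. A domain held a median of 4 such peaks, and the highest of several ranks high by construction. This percentile is therefore no sign of unusually strong peaks. The highest sgNpm1A peaks within domains were in the LNCATV domain on chromosome 1 (7.85-fold), in CYTH4 (7.57-fold) and in a domain of LPCAT1 on chromosome 5 (7.32-fold). Fold enrichment is scaled within each list, so that an equal value need not mean equal acetylation in both.

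**Figure D1:**
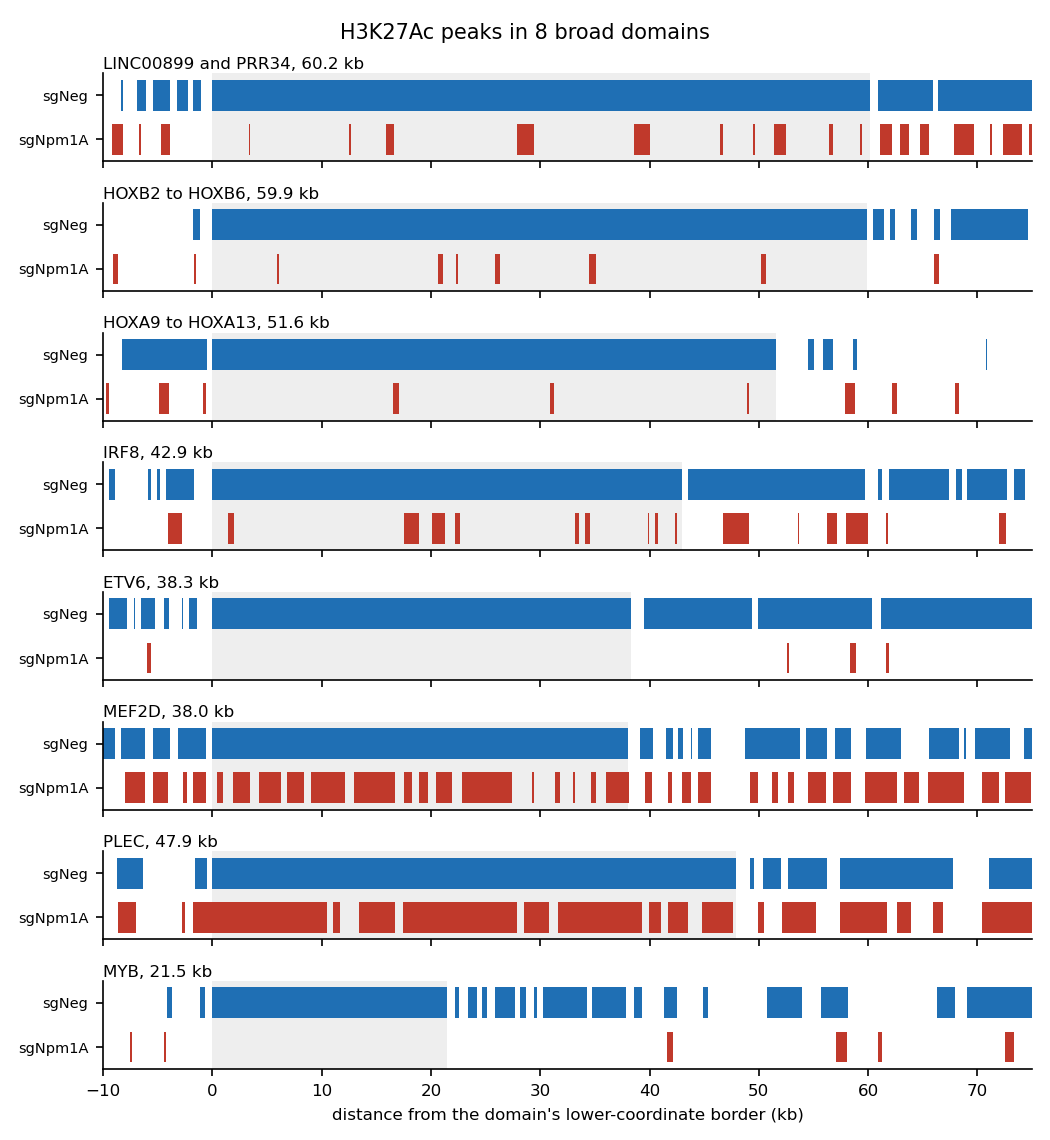
H3K27Ac peaks of sgNeg (upper bars) and sgNpm1A (lower bars) in 8 domains, by distance in kb from the domain's border with the lower coordinate; the domain is shaded. Within the domain of MYB and that of ETV6 there is no sgNpm1A peak, in the HOXA and HOXB domains there are 3 and 6, and in the PLEC domain sgNpm1A peaks cover 84.2%.

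The widest domain, of 60166 bp (chr22:46430942-46491107), had a fold enrichment of 13.2 and no protein-coding start by the annotation used. It overlapped the noncoding genes LINC00899, PRR34-AS1 and MIRLET7BHG, the host of the let-7 cluster, and lay next to the let-7 domain above. sgNpm1A peaks covered 10.3% of it in 10 pieces, against 32.4% of its flanks. The HOXB domain (chr17:46618333-46678206, 59874 bp, 6.32-fold) held the starts of HOXB2, HOXB3, HOXB4, HOXB5 and HOXB6 and was covered over 4.01%, and the HOXA domain (chr7:27198257-27249840, 51584 bp, 13.1-fold) held those of HOXA9, HOXA10, HOXA11 and HOXA13 and was covered over 2.06%. HOX genes encode homeodomain factors of body axis and of blood progenitors. The flanks of both HOX domains were covered more than the domains, over 6.47% and 11.7%.

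Other domains among the 20 widest differed widely in coverage. ETV6, a repressor of the ETS family that blood stem cells need, had a domain of 38306 bp (chr12:11896005-11934310) covered over 0%. SATB1, an organizer of chromatin loops, had one of 36091 bp (chr3:18453443-18489533) covered over 0.576%. IRF8, a factor of monocyte and dendritic cell fate, had one of 42939 bp (chr16:85931861-85974799) covered over 11.3%. At the other end, the domain of PLEC, which encodes the cytoskeletal linker plectin (chr8:144985776-145033693, 47918 bp), was covered over 84.2%, and that of AHRR and EXOC3 (chr5:407518-450723, 43206 bp) over 61.2%. MEF2D, a transcription factor gene with a domain of 38049 bp and a fold enrichment of 9.33, was covered over 61.6%, and LMNA, the gene of lamin A and C, over 49.5%. The domain of PDE4DIP (chr1:144986008-145037561, 51554 bp) was covered over 96.6%, but this gene has near-identical copies on chromosome 1, and the position of its reads is uncertain. Of these wide domains, PLEC, AHRR, MEF2D, LMNA and PDE4DIP lie on chromosomes 1, 5 and 8, described below.

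Genes that the study named as regulators were taken as a list. All but PBX3, which it named for its mRNA, were named for their chromatin in these samples, so the list is no independent evidence. Of 13 genes, 8 had a start in a domain (HOXA9, MEIS1, MYB, GFI1, CEBPA, RARA, RXRA and IRF8), in 9 domains with a median coverage of 11.3%, against 24.96% for the 814 domains. All but those of GFI1 and RARA lie outside chromosomes 1, 5, 8 and 17, which are described below. Domains outside those chromosomes had medians of 14.9% at a fold enrichment from 4 to under 6 and 9.79% from 6 to under 8. The 11.3% lies between these values, so that the list does not stand apart from such domains. MYB, which drives progenitor proliferation, lay in a domain of 21514 bp (chr6:135499239-135520752, 7.20-fold) covered over 0%. MEIS1, the HOX cofactor, lay in one of 19181 bp (chr2:66659241-66678421) covered over 1.6%, and GFI1, a repressor in granulocyte development, in one of 10756 bp (chr1:92943473-92954228, 8.65-fold) covered over 6.17%. CEBPA, the factor of granulocyte commitment, had a domain of 15908 bp covered over 22.3%, near the 19.0% of its flanks. The retinoid receptors were covered more, RARA over 26.1% and the RXRA domains over 40.7% and 48.9%. The flanks of these RXRA domains were themselves covered over 39.4% and 59.9%. MYC, BCL2, MCL1, SPI1 and PBX3 were not in domains, since the widest sgNeg peak over one of their starts measured 5402, 4888, 3848, 6304 and 2911 bp. The study ranked super-enhancers by H3K27Ac occupancy, with MYC, BCL2, MCL1 and SPI1 among their genes, and placed that of MYC downstream of the gene. A single peak of at least 10000 bp over a start is another measure and does not speak to that ranking.

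Hematopoietic transcription factors were a wider list. Of 50 genes, 16 had a start in a domain, against 2.89% of all coding genes, and 9 of their 18 domains were covered under 10%, as were 224 of the 814 domains (27.5%). The median coverage of the 18 was 10.4%. Most of the 18 lie outside chromosomes 1, 5, 8 and 17. Domains outside those chromosomes had a median of 15.3%, and of 9.79% at a fold enrichment from 6 to under 8. Besides the genes above, ZEB2, a repressor needed for monocyte and dendritic cell development, lay in a domain of 23407 bp (chr2:145259513-145282919, 8.65-fold) covered over 0%. The stem cell adaptor gene LMO2 had domains covered over 2.46% and 13.6%, and RUNX2 had one covered over 3.55%. In contrast, CEBPD on chromosome 8 was covered over 57.0%, with flanks at 20.7%, and IRF1 on chromosome 5 over 43.1%. This list was made with earlier results of these data known.

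Other lists were counted in the same way. Of 36 genes of signaling, cell cycle and survival, 5 had a start in a domain. The cell cycle inhibitor genes CDKN1B (chr12:12866350-12883182, 10.2-fold) and CDKN2C (chr1:51431152-51449664, 7.56-fold) were covered over 0.558% and 0.897%, JUNB over 7.67%, TRIB1 over 35.4% and PIM3 over 58.3%. The 3 of 27 genes of myeloid receptors and surface proteins were ITGB2, the common chain of the leukocyte integrins, covered over 16.7%, CD9 over 23.8% and IL6R over 40.9%. BCOR, a corepressor gene in the list of 34 chromatin regulators, had a start in a domain covered over 0%. Of 19 listed replication-dependent histone genes with an annotation, 5 lay in 2 domains on chromosome 6, covered over 1.21% and 0%. The list is partial, and histone genes outside it had starts in further domains. Among these were H2AC11, H2BC11 and H4C9 on chromosome 6 (covered over 0%) and H2AC20, H2AC21 and H2BC21 on chromosome 1 (10.4%). None of 14 housekeeping genes had a start in a domain, with 8800 bp as the widest sgNeg peak over a start. Only 2.89% of all coding genes had a start in a domain, so that none of 14 says little. The granule genes ELANE and PRTN3 shared a domain of 10314 bp covered over 0%, and MPO, the gene of myeloperoxidase, lay in one of 14254 bp covered over 5.70%.

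Coverage was next set against the strength of the domain in sgNeg. The 170 domains with a fold enrichment under 4 had a median coverage of 47.3% (42.8 to 52.4%), the 441 from 4 to under 6 had 23.1% (19.7 to 26.8%), the 151 from 6 to under 8 had 16.0% (10.7 to 20.9%) and the 52 of 8 or more had 13.7% (6.17 to 19.6%). The weakest domains in control cells were thus covered most, and of neighboring classes only the first pair had intervals that did not overlap. The flanks fell too, with medians of 31.4%, 16.99%, 15.3% and 12.2%. Coverage exceeded that of the flanks in 82.9% (76.6 to 87.9%) of the weakest domains and in 50% (36.9 to 63.1%) of the strongest. Over the 814 domains, Spearman's rho with coverage was -0.371 for sgNeg fold enrichment and 0.796 for the coverage of the flanks, and the domains share both libraries.

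**Figure D2:**
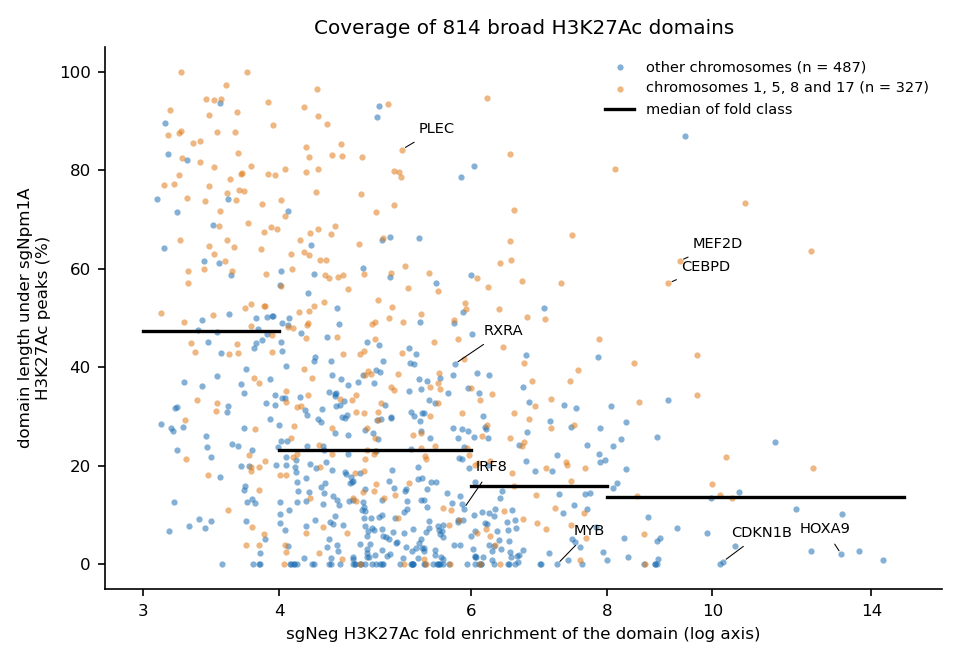
Each point is 1 of 814 domains, with its fold enrichment in sgNeg on a log axis and the percentage of its length under sgNpm1A H3K27Ac peaks; black lines are medians of 4 classes of fold enrichment. The medians go from 47.3% to 13.7%, and 100 of the 122 points above 60% are domains of chromosomes 1, 5, 8 and 17.

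Among the domains with the highest fold enrichment were those of TNRC18 and of several homeobox genes, which are named here after their values were seen. TNRC18 (14.3-fold) was covered over 0.958%, ISL2 (13.6-fold) over 2.72%, IRX5 (12.3-fold) over 2.79% and MKX (10.5-fold) over 3.68%. ISL2, IRX5 and MKX encode homeodomain factors, as does UNCX, whose domain of 23128 bp (8.85-fold) was covered over 0% between flanks covered over 14.6%. Exceptions among the strongest domains were a noncoding domain of 21073 bp on chromosome 1 (12.3-fold), covered over 63.7%, and one of 15778 bp inside AHRR (10.7-fold), covered over 73.4%.

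Coverage differed between chromosomes, and chromosomes 1, 5, 8 and 17 were set apart after the data were seen. Chromosomes 1, 5, 8 and 17 held 327 domains (40.2%) in 21.7% of the length, and their domains had a median coverage of 43.1% (37.9 to 48.9%), against 15.3% (12.9 to 18.4%) for the other 487. Their flanks were covered over 31.9% and 12.6%. The sgNpm1A peaks covered 18.9% of chromosome 8, 11.7% of chromosome 1, 11.5% of chromosome 17 and 10.9% of chromosome 5, and the sgNeg peaks 16.9%, 12.1%, 14.9% and 10.3%. By sgNpm1A coverage these chromosomes rank highest, with chromosome 7 next at 9.46%. The higher coverage of their domains thus follows in part from the choice, which the intervals do not take into account. On chromosome 8, the median of 90 domains was 60.3%. On chromosome X, sgNpm1A peaks covered 0.0865% in all and sgNeg peaks 0.690%, so that 5 of 5 uncovered domains there, with BCOR and miR-223 among them, do not stand apart from their chromosome. Across the 23 chromosomes, the coverage of the chromosome and the median coverage of its domains had a Spearman's rho of 0.819, with points that share both libraries and contain the domains. Copy number and its part in these values were not tested.

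**Figure D3:**
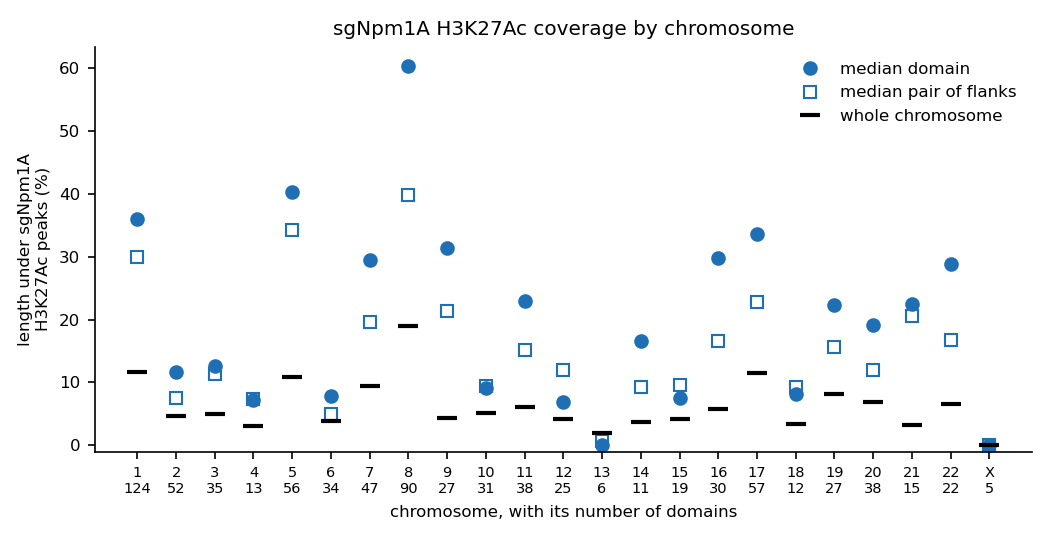
Percentage of length under sgNpm1A H3K27Ac peaks for each chromosome, as the median of its domains (filled circles), the median of their flanks (open squares) and the whole chromosome (bars); the number of domains stands below the name. Chromosome 8, with 90 domains, has a median of 60.3%, and chromosomes 13 and X have medians of 0%.

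The order by fold enrichment was seen in both sets of chromosomes for the weaker classes. On chromosomes 1, 5, 8 and 17 the medians were 65.8%, 39.1%, 26.9% and 32.9% from the weakest to the strongest class, and the strongest had 17 domains with an interval of 14.03 to 57.05%. On the other chromosomes they were 31.8%, 14.9%, 9.79% and 6.47%.

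Domains frequently lay near each other. With a gap of up to 50 kb, 307 domains formed 122 arrays of at least 2, 13 arrays had at least 4, and 507 domains stood alone. The array with the most domains held 9 over 315084 bp on chromosome 1 (chr1:234837258-235152341), with 228225 bp in domains and no coding start, between IRF2BP2 and TOMM20. Coverage of these 9 ranged from 28.1% to 63.7%. An array of 7 domains spanned RXRA on chromosome 9 (median 48.9%). In the noncoding gene CCDC26 downstream of MYC, 5 domains had fold enrichments from 3.53 to 8.47 and were covered over 20.1% to 71.8%, the weakest of them the most. By contrast, 4 domains at SFMBT2, a Polycomb group gene on chromosome 10, were covered over 2.65% to 11.2%, and 4 at LMO2 had a median of 8.02%.

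By gene content, domains with a coding start had a median coverage of 29.5% (26.2 to 32.7%). Those inside or across a coding gene without a start had 21.6% (14.9 to 29.1%), those with another annotated gene 19.9% (15.1 to 25.6%) and those with none 18.2% (13.1 to 25.5%). The medians of the flanks were 20.7%, 16.8%, 14.54% and 13.8% in the same order.

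Uncovered domains were examined by gene. Among the 64 without a sgNpm1A peak, those over 18 kb were at ETV6, ZEB2, UNCX and MYB, in ATP8B4 (20711 bp, no start inside) and at CXCL8, which encodes the neutrophil chemokine interleukin-8 (18247 bp). LCP1, the gene of the leukocyte actin bundler L-plastin, had an uncovered domain of 14730 bp with a fold enrichment of 3.78. At least 90% was covered in 18 domains. The 10 most covered were the PDE4DIP domain, a domain on chromosome 5 near SLC9A3, LPCAT1 on chromosome 5, HYDIN on chromosome 16, which has a near-identical copy elsewhere, and 6 on chromosome 8 (PSCA and JRK, GPR20, ZFTRAF1, SCRIB and PUF60, and 2 without a coding start). At the width limit, the 5 domains just inside, of 10000 to 10014 bp, were at DAP, SDC3, PTPRC, GNB5 and DLX3 and were covered over 5.34% to 79.0%. The 5 peaks just outside, of 9970 to 9994 bp, were near INSIG1 and PTPRC and at PPFIA4, CFL1 with MUS81, and TMEM63A, and were covered over 6.60% to 74.4%.

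Within domains, coverage was low next to canonical gene starts. The canonical transcript starts of 406 coding genes lay in domains, and 50 of these starts (12.3%) were themselves under a sgNpm1A peak. Within 250 bp of the starts, inside the domain, sgNpm1A peaks covered 13.5% of the length, against 35.1% at 2500 to 5000 bp. Over wider windows and all annotated coding transcript starts there was no such dip, with 35.8% covered within 1 kb of a start and 33.5% in the rest of the domains that hold one. Around 19413 canonical starts outside domains the values were 6.91% and 10.5%. Sequence around starts is rich in GC, and the part of sequence composition in this dip was not tested.

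**Figure D4:**
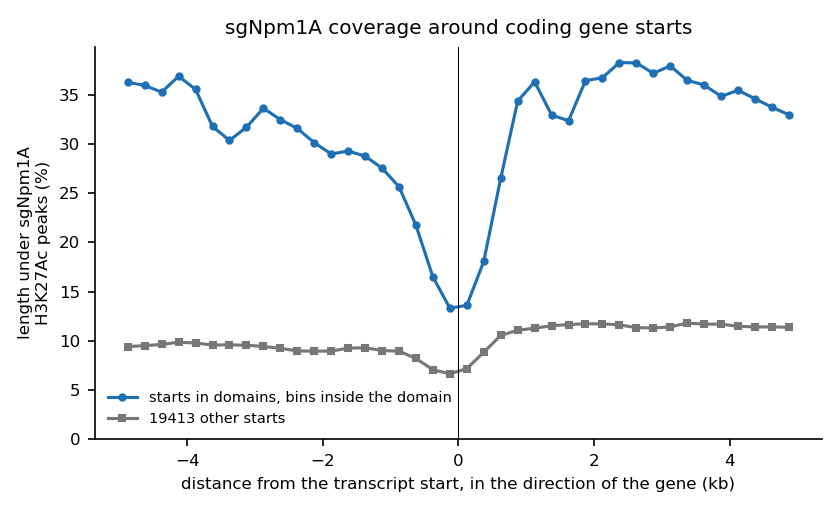
Percentage of 250 bp bins under sgNpm1A H3K27Ac peaks by distance in kb from the canonical transcript start, in the direction of the gene, for 406 starts in domains (bins inside the domain) and 19413 other starts. In domains the bins next to the start have 13.3% and 13.6%, and the bin from 1000 to 1250 bp has 36.3%.

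H3K4me3, an independent mark of active promoters, was compared by gene. Of the 581 genes, each with any annotated transcript start in a domain, 557 had a start on GRCh38. H3K4me3 was looked for at a single start per gene, which need not be the start inside the domain. Canonical starts of only 406 coding genes lay in domains. A sgNeg H3K4me3 peak within 1 kb of the start used was present at 486 (87.3%, 84.2 to 89.8%), against 65.2% of all 19058 genes and 64.6% (63.9 to 65.3%) of genes outside domains. The share was 84.4% (82.3 to 86.3%) for genes with a peak of 5 to 10 kb and 89.0% (88.0 to 89.9%) for 2 to 5 kb, whose intervals overlap that of the domain genes. The median width of the H3K4me3 peak was 1161 bp at domain genes, 1049 bp, 969 bp and 652 bp at the narrower H3K27Ac classes, and 262 bp without an H3K27Ac peak. Domain genes thus had no more H3K4me3 peaks than genes of the next classes, but wider ones by median. IRF8 (4991 bp), GFI1 (4833 bp), MEF2D (4219 bp), HOXA10 (4078 bp) and CEBPA (3587 bp) had wide sgNeg H3K4me3 peaks, whereas MEIS1 (339 bp) and RARA (211 bp) had narrow ones at the only start used.

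In the sgNpm1A H3K4me3 list, a promoter peak was present at 65 domain genes (11.7%, 9.26 to 14.6%), against 7.63% of all genes. It was present at 9.30% (7.80 to 11.0%) of genes with an H3K27Ac peak of 5 to 10 kb, at 5.41% (4.77 to 6.13%) for 2 to 5 kb, and at 9.26% (8.58 to 9.98%) of genes without one. None of HOXA9, HOXA10, MEIS1, MYB, GFI1, CEBPA, IRF8, RXRA, RARA, ETV6 and MEF2D had one. MEF2D and RXRA, whose H3K27Ac domains were covered over 61.6% and over 40.7% and 48.9%, were thus without an H3K4me3 promoter peak in sgNpm1A. Most domain genes were without one, so that its absence does not set the named genes apart. The start used can also lie outside the domain, and its value then does not describe the domain.

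**Figure D5:**
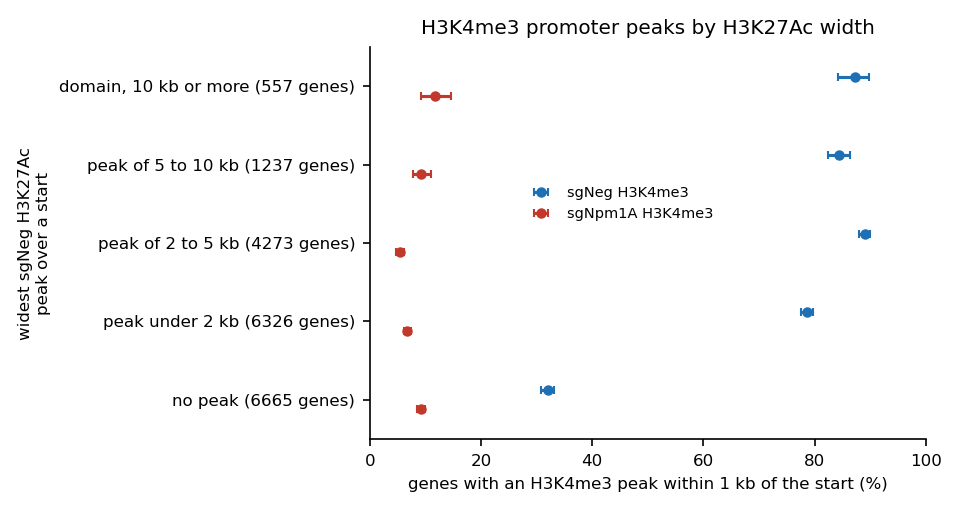
Percentage of coding genes with an H3K4me3 peak within 1 kb of the gene start in sgNeg and sgNpm1A, by the widest sgNeg H3K27Ac peak over a transcript start; bars are 95% Wilson intervals. At the 557 domain genes the values are 87.3% and 11.7%, and at the 6665 genes without an H3K27Ac peak they are 32.0% and 9.26%.

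Sequence composition was not used by the rule. The median GC content was 51.4% (50.7 to 52.2%), against 47.8% (47.0 to 48.5%) in the flanks and 40.9% over the chromosomes. The sgNeg peaks of 5 to under 10 kb had 50.4% (50 to 50.8%), an interval that overlaps that of the domains. In all, 686 domains (84.3%) had more GC than their flanks. Domains with a coding start had 54.9%. The 64 domains without a sgNpm1A peak had a median of 42.2% (41.1 to 43.3%), and the 178 covered over at least 50% had 54.8% (53.8 to 56.6%). Across the 814 domains, GC content had a Spearman's rho of 0.516 with sgNpm1A coverage and of -0.137 with sgNeg fold enrichment, and base composition is shared by neighboring domains. GC content thus moved with coverage, and its part in it was not tested.

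Upstream windows of 250 bases were searched on both strands for short motifs at the 406 canonical starts and at 19819 of all coding genes. GAGGAAGT, a PU.1 site, was present in 3.94% (2.44 to 6.31%) of domain windows and 2.06% of all, and CCGGAAGT, an ETS site that shares GGAAGT with it, in 5.67% and 5.13%. TGTGGTT (RUNX) was in 2.46% and 2.80%, CACGTG (E-box) in 7.88% and 7.87%, TGACGTCA (CRE) in 2.71% and 2.40%, TTGCGCAA (C/EBP) in 0.246% and 0.167%, and CCAAT in 35.0% and 34.2%. TGATTTAT (HOX-MEIS) was in 0 of 406, which allows a share of up to 0.739% when 3 counts of the total are taken as the limit and of 0.937% by the Wilson interval, and in 0.469% of all. These matches describe letters and no binding. The share in all windows was above the interval of the domain windows for none of the motifs, and below it for PU.1 alone. The median number of CG dinucleotides was 21 in domain windows and 18 in all.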

How the data were processed

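ChIPmentation libraries of 2 histone marks were mapped and peaks were called by the authors, separately in each library. The submitters' processing notes name bcl2fastq 2.17, Trimmomatic 0.33, Bowtie 1.1.2, MACS2 2.1.0 and deepTools, without thresholds. In the deposited lists each peak has a fold enrichment, which is a ratio of pileup to expected pileup, and a −log10 p-value and −log10 q-value. H3K27Ac peaks are broad, which joins neighboring enriched stretches, and their values are averages over the peak. The labels name hg38, but H3K27Ac peaks on chromosome 1 ended at 249218478 and 249212461, within GRCh37 (249250621) and past the end of hg38. H3K4me3 peaks on chromosome 17 ended at 83201880 and 83201881, past the GRCh37 end at 81195210. No coordinates were converted.

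Groups were taken from sample titles. Domains, flanks of equal width on each side and coverage by merged sgNpm1A peaks were computed with Python 3.11.15, pandas 2.3.3 and numpy 2.4.6. Covered lengths equaled those of bedtools 2.31.1 for 814 of 814 domains. Genes came from GENCODE 44 mapped to GRCh37 and, for H3K4me3, from RefSeq on GRCh38. Shares have 95% Wilson intervals and medians order-statistic intervals (scipy 1.17.1). The median intervals and the functions for coverage and overlap were tested on simulated data, and the Wilson intervals were not. The named domains were the 20 widest, the 10 most covered, the widest of the least covered, 5 on either side of the width limit, and those with a start of a listed gene. Not all 20 widest are printed, and a few items are not reported here. Members and lists were chosen with earlier results of these data known.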

Additional observations from a re-analysis of the deposited data

How the results depend on the processing

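No paired analysis was possible because each group held 1 library. Of 43 recomputations, 31 moved a value out of the 95% interval of the reported one or changed the number of domains markedly, and 12 did not, among them the 565 domains at a sgNeg q-value under 1e-05. With sgNpm1A peaks at a q-value under 0.01, the median coverage of a domain was 8.79%, domains without a peak were 27.1%, those covered over at least 50% were 14%, those covered more than their flanks were 50.1%, and the 5 to 10 kb class had a median of 3.78%. With a fold enrichment of at least 4 these values were 0%, 89.6%, 0.983%, 9.34% and 0%. Joining sgNeg peaks within 1 kb gave 2812 domains with 29.4%, 5.01%, 25% and 70.8% for the first 4 values. A minimum width of 15000 bp gave 271 domains, 3.32% without a peak and 55.7% with a coding start, and one of 8000 bp gave 1415 domains, 10.2% and 46.9%. Among alternatives chosen after seeing the data, leaving out chromosome 8 gave a median of 21.9% and 16.4% covered over at least 50%. Without chromosomes 1, 5, 8 and 17 the first 4 values were 15.3%, 11.5%, 7.80% and 56.9%. For H3K4me3 peaks with a q-value under 1e-05, 75.6% of domain genes in sgNeg and 3.95% in sgNpm1A had a promoter peak, and a window of 2 kb gave 93.0% and 21.4%. Fewer peaks or a smaller window lower such shares by construction. With 1 library per group and unknown depth, a weaker precipitation in the sgNpm1A library and a loss of acetylation cannot be told apart.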
